A study of Mus musculus with 16 samples.

Results

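Notch signalling is a short-range pathway in which a ligand on one cell binds a receptor on its neighbour. Ligand binding lets proteases cut the receptor, and the freed intracellular domain enters the nucleus and joins the DNA-binding protein RBPJ to switch on targets such as the Hes and Hey repressors. In skin, Notch signalling is known for its part in the step from basal to suprabasal keratinocytes and in the upkeep of the hair follicle.

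The 7 genes described here are the receptors Notch1, Notch2 and Notch3, the ligands Jag1, Jag2 and Dll1, and the target Hes1. They were chosen by gene name among 22579 genes, each represented by its transcript with most footprints across 8 Ribo-seq libraries. All 7 were counted in RNA-seq, and 6 had at least 10 footprints in sum; Notch3 had 9 and is given in Ribo-seq by its counts alone. A wider list of 61 genes of the pathway, all found in the tables, was used for the genes around them.

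Hair follicle stem cells (HFSCs) and their progeny were grown from C57BL/6J mice for 2 weeks as 3D–3C organoids, a culture in which both populations are kept side by side. Cultures were left untreated or received N1-acetylspermidine (N1-AcSpd), an acetylated polyamine, for 72 h, and were sorted into α6+/CD34− progenitors and α6+/CD34+ HFSCs. Each of the 4 groups (untreated progenitors, untreated HFSCs, treated progenitors and treated HFSCs) was sampled from 2 donor mice, and each lysate was split for RNA-seq and Ribo-seq (16 libraries, n = 2 per group and assay). RNA-seq counts the transcripts, whereas Ribo-seq counts the fragments that ribosomes protect (footprints), and translational efficiency (TE) is the footprint level relative to the RNA level.

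On the kept transcripts the RNA-seq libraries held 21601141 to 31505435 counts and the Ribo-seq libraries 34467 to 267921 footprints. A library without a count allows up to 3 counts, or 0.0933 to 0.145 CPM (counts per 1000000 counts of the library, scaled by its TMM factor) in RNA-seq and 12.2 to 75.5 CPM in Ribo-seq; these limits cover counting error only. RNA of Cd34, the surface marker used for sorting, lay at 2.35 to 5.36 CPM in the progenitor libraries and at 67.4 to 89.9 CPM in the HFSC libraries. The basal keratins Krt5 and Krt14 were at least at 14600 CPM in all 8. Since the cells were sorted by CD34, these values are no independent check of the populations. The 6 immune markers summed to at most 0.124 CPM. Replicates 1 and 2 were taken as the 2 mice, although the sample titles give only the number. One group stood apart: the RNA-seq difference between the mice ran against that of the other 3 groups in treated HFSCs (Pearson r across 10166 genes −0.687 to −0.375). The RNA-seq fold changes of the 7 genes are therefore also given from untreated cells or from progenitors alone. These contrasts do not compare the 2 treated HFSC libraries, but their SE and p come from a fit of all 8. No ratio within 1 mouse is given for these 2 libraries.

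The 7 genes took 0.228% to 0.264% of the RNA-seq counts of a library. Levels of different genes were compared per length, as RNA-seq CPM per kb of transcript, averaged over the 8 libraries (mean±s.d., n = 8). The ligands Jag1 (105±15.6 CPM per kb) and Jag2 (101±8.61 CPM per kb) and the receptor Notch1 (96.7±11.7 CPM per kb) formed the top of this order. These 3 genes overlapped, and Jag1 lay above Jag2 in only 5 of 8 libraries. Jag2 and Notch1 had further RNA-seq counts on a second transcript (29247 and 10073 in sum), which these levels leave out. Hes1, a repressor of transcription, followed with 73.9±17.2 CPM per kb and lay below Notch1 in 8 of 8 libraries, although their ranges overlapped. From there on the ranges did not overlap: Dll1, a Delta-type ligand, had 37.4±3.91 CPM per kb, Notch2 had 19.6±1.33 and Notch3 had 2.09±1.18. Among 14191 genes Jag1, Jag2 and Notch1 stood at the 95.3th, 95.2th and 95.0th percentile of this measure, whereas Notch3 stood at the 31.8th.

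**Figure D1:**
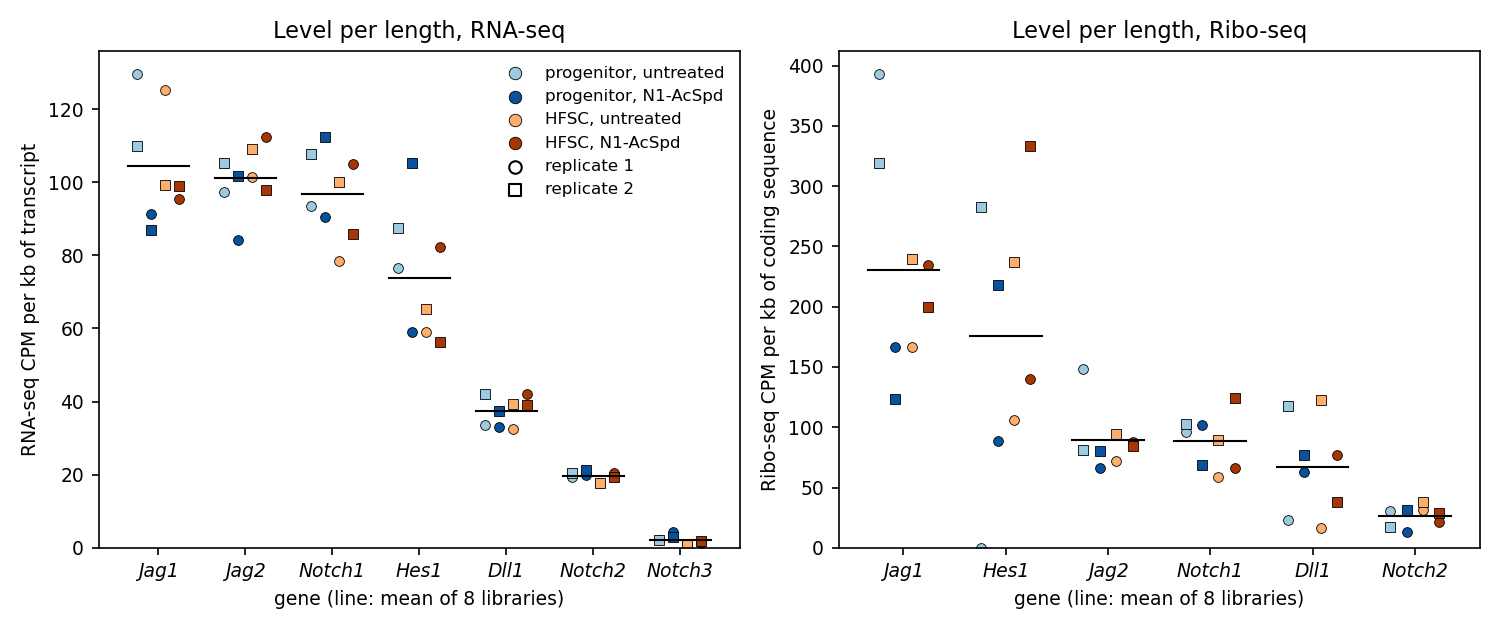
Level per length of each gene in each library, as RNA-seq CPM per kb of transcript (left) and Ribo-seq CPM per kb of coding sequence (right); colours are groups, symbols are replicates and lines are means of 8 libraries. In RNA-seq Jag1, Jag2 and Notch1 overlapped near 100 and Notch3 averaged 2.09, whereas in Ribo-seq each gene overlapped the next.

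Notch3 was the receptor that differed between the groups. It had 16.6 and 17.6 CPM in untreated progenitors (replicates 1 and 2), 6.94 and 7.31 CPM in untreated HFSCs, 35.1 and 24.6 CPM in treated progenitors and 10.3 and 15.7 CPM in treated HFSCs. The 4 HFSC libraries all lay below the 4 progenitor libraries, a separation seen in 9.52% of genes in either direction. Within each cell type both treated libraries lay above both untreated ones, where 38.8% (progenitors) and 33.9% (HFSCs) of genes separated. Notch3 is known in the suprabasal layers of epidermis and, outside the epithelium, in the mural cells of vessels.

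The first question was how the sorted populations differ. Over both treatments Notch3 RNA was 10.1±4.07 CPM in HFSCs and 23.5±8.56 CPM in progenitors (n = 4 each), a ratio of 0.429. This was the only one of the 7 genes to pass edgeR's quasi-likelihood test over both treatments (log2 ratio of HFSCs to progenitors −1.23, SE 0.164, adjusted p = 0.0068), where 3.91% of 14205 genes passed. The fold was much the same in untreated cells (−1.26, SE 0.235, adjusted p = 0.0836) and in treated cells (−1.19, SE 0.229, adjusted p = 0.0638), though with 2 libraries per group neither passed. None of the 7 genes did in these single comparisons, where 0.148% and 0.746% of genes passed with edgeR, and Notch3 was the only one with an unadjusted p under 0.05, as 9.58% and 11.2% of genes had. With DESeq2 Notch3 was called in both (adjusted p = 2.14e-04 and 2.07e-04). In bulk libraries of sorted cells, fewer cells that express a gene and less RNA per cell cannot be told apart.

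The call for Notch3 over both treatments was kept in each of the 8 fits that left out 1 library (log2 fold change −1.38 to −1.09) and with the mouse as a replicate block (−1.23, adjusted p = 0.0190). In untreated cells, which do not use the treated HFSC libraries, the log2 ratio of CPM was −1.26 in mouse 1 and −1.27 in mouse 2.

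The second question was what N1-AcSpd changed. Over both cell types Notch3 RNA was 21.4±10.9 CPM with N1-AcSpd and 12.1±5.76 CPM without (n = 4 each), a ratio of 1.77. It passed the edgeR test (log2 fold change 0.84, SE 0.163, adjusted p = 0.0456), as did 1.64% of genes, and none of the other 6 did. The call did not hold with the mouse as a replicate block (0.84, adjusted p = 0.0812). It was also lost in 6 of 8 fits that left out 1 library, with log2 fold changes of 0.68 to 0.87 and adjusted p of 0.114 to 0.159. These were the fits without either of the untreated progenitor or untreated HFSC libraries, without treated progenitor replicate 1 and without treated HFSC replicate 2. Within progenitors, a contrast that does not compare the treated HFSC libraries, the log2 fold change was 0.81 (SE 0.227, adjusted p = 0.290 with edgeR). Within HFSCs it was 0.88 (SE 0.234, adjusted p = 0.364 with edgeR). Both values come from the fit of all 8 libraries. Of all genes, 0.239% passed in progenitors and none in HFSCs with edgeR, where 1100 had an unadjusted p under 0.05 and DESeq2 called 124. The difference between the cell types in this response was 0.07 (SE 0.323, adjusted p = 1.00 with edgeR), a comparison in which no gene passed and 118 had an unadjusted p under 0.05.

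**Figure D2:**
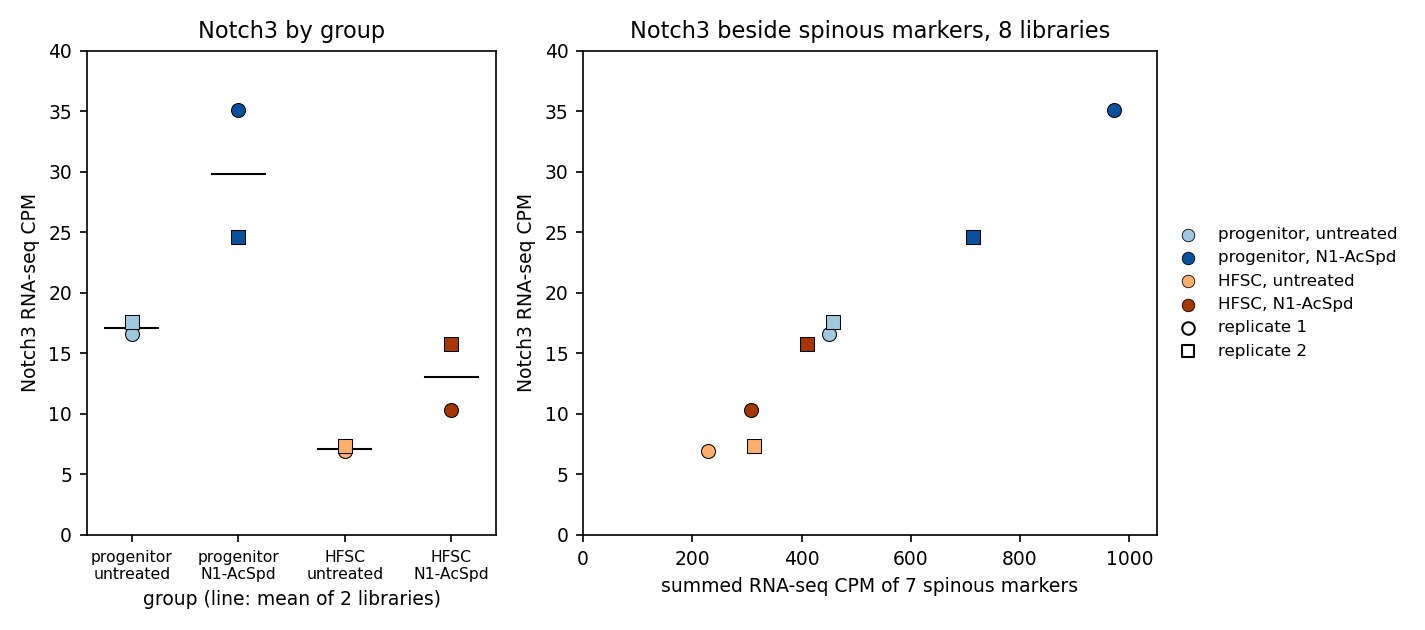
Notch3 RNA-seq CPM in each library by group (left; lines are means of 2 libraries) and against the summed CPM of 7 spinous-layer markers in the same library (right). Treated progenitors were highest on both axes (24.6 and 35.1 CPM of Notch3) and untreated HFSCs lowest in Notch3 (6.94 and 7.31 CPM).

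Markers of the spinous layer, the first suprabasal layer, moved with Notch3. The sum of 7 such markers (Krt1, Krt10, Krtdap, Sbsn, Dsg1a, Dsc1 and Ivl) was 449 and 457 CPM in untreated progenitors, 228 and 313 CPM in untreated HFSCs, 971 and 714 CPM in treated progenitors and 308 and 410 CPM in treated HFSCs. None of the 7 was at 0 in any group. Over both treatments all 7 were lower in HFSCs and 6 passed the edgeR test. Over both cell types all 7 were higher with N1-AcSpd and 3 passed. Between untreated cells all 7 were lower in HFSCs than in progenitors and none passed with edgeR (median log2 fold change −1.42). Within progenitors all 7 were higher with N1-AcSpd and 2 passed. The sum of 6 granular-layer markers ran from 4.88 to 51.7 CPM, with the highest mean in treated progenitors and the lowest in untreated HFSCs. Of these 6, all were lower in HFSCs (2 passed) and all higher with N1-AcSpd (none passed with edgeR). With N1-AcSpd 9 of 10 HFSC markers were lower (2 passed, median −0.26), and all 5 tested fibroblast markers were higher (none passed with edgeR, median 0.93). The fibroblast sums were 1.07 and 5.25 CPM in untreated progenitors and 1.45 and 13.6 CPM in treated progenitors. In HFSCs they were 1.90 and 3.82 CPM untreated and 5.54 and 2.02 CPM treated. The part of these markers in the Notch3 result was not tested. The genes whose RNA-seq pattern was most like that of Notch3 over the 8 libraries, among the 10166 genes averaging 100 counts or more, were Plet1 (Pearson r of log2 CPM 0.994), a marker of the upper hair follicle, and Lypd3 (0.991), a surface protein of suprabasal keratinocytes. Such r are a description, since the 8 libraries share mice and groups. The mural markers Rgs5, Myh11, Kcnj8 and Abcc9 (a list added after the data were seen) lay at or below 0.193 CPM in every library. Pdgfrb of that list had 1.83 CPM in treated progenitor replicate 2, 0.818 CPM in untreated progenitor replicate 2 and at most 0.375 CPM in the rest. Acta2 (20.0 to 89.3 CPM) and Cspg4 (35.0 to 270 CPM) of that list were detected at higher levels. Over both treatments 2 of the 4 tested genes of this list were higher in HFSCs, and 1 passed the edgeR test as higher. The sum of its 7 genes was 68.2 to 200 CPM in progenitors and 170 to 344 CPM in HFSCs.

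The sequence before the Notch3 start is shown because Notch3 was the member whose RNA passed the tests. The kept transcript runs over chromosome 17, 32120820 to 32166852 on the minus strand (33 exons; GENCODE vM21, GRCm38), and the RefSeq start used for the window lies 38 bases upstream of it. Below are the 250 bases upstream of that start, chr17:32166891-32167140 in GRCm38.p6, written 5′ to 3′ on the minus strand, with GC boxes (GGGCGG or CCGCCC) in capitals.
Notch3: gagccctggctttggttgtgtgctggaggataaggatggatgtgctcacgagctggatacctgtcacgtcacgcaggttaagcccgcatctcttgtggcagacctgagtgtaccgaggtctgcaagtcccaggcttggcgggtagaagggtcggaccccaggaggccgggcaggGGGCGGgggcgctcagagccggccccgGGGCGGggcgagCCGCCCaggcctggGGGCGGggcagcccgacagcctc
The window held 4 GC boxes, all within 76 bases of the start. Of 32851 promoter windows of this length 32.7% held at least 1, and of the windows of the pathway list 60.7% did. The windows of Notch1, Notch2 and Jag2 held 5 each, and those of Jag1 and Dll1 held none. These windows were also set by RefSeq starts. The Jag2 window (112929496 to 112929745 on chromosome 12) lay inside the span of its kept transcript, which starts at 112929776 on the minus strand. The Jag1 window and a Dll1 window lay partly inside the spans of theirs. The core letters bound by RBPJ (TGGGAA, or TTCCCA on the other strand) were not in the Notch3 window. They were also not in the windows of Notch1, Notch2, Jag1, Jag2 and Dll1, and 21.6% of all windows held them. Windows were matched for 6 of the 7 genes; Hes1 had no entry.

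Notch1 and Notch2 passed no test. Notch1, the receptor best known from epidermis, had 887 and 1022 CPM in untreated progenitors, 743 and 950 CPM in untreated HFSCs, 857 and 1067 CPM in treated progenitors and 997 and 815 CPM in treated HFSCs. All 4 groups overlapped. The log2 fold change of Notch1 was −0.13 (SE 0.119, adjusted p = 0.618) for HFSCs over progenitors and 0.05 (SE 0.119, adjusted p = 0.874) for N1-AcSpd, both with edgeR. In untreated cells alone the Notch1 value between the cell types was −0.17 (SE 0.169), and in progenitors alone that for N1-AcSpd was 0.01 (SE 0.169). Notch2 had 204 and 216 CPM in untreated progenitors, 185 and 186 CPM in untreated HFSCs, 210 and 224 CPM in treated progenitors and 216 and 203 CPM in treated HFSCs. Both untreated HFSC libraries lay below the other 6 (40.7% of genes separated untreated HFSCs from untreated progenitors), but Notch2 was the steadiest of the 7 genes, with its highest library at 1.21 times the lowest. Its edgeR log2 fold changes were −0.11 (SE 0.067, adjusted p = 0.423) between the cell types and 0.11 (SE 0.067, adjusted p = 0.479) with N1-AcSpd. Untreated cells alone gave −0.18 (SE 0.095) and progenitors alone 0.05 (SE 0.095) for Notch2. The fourth receptor, Notch4, averaged 0.222 CPM.

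**Figure D3:**
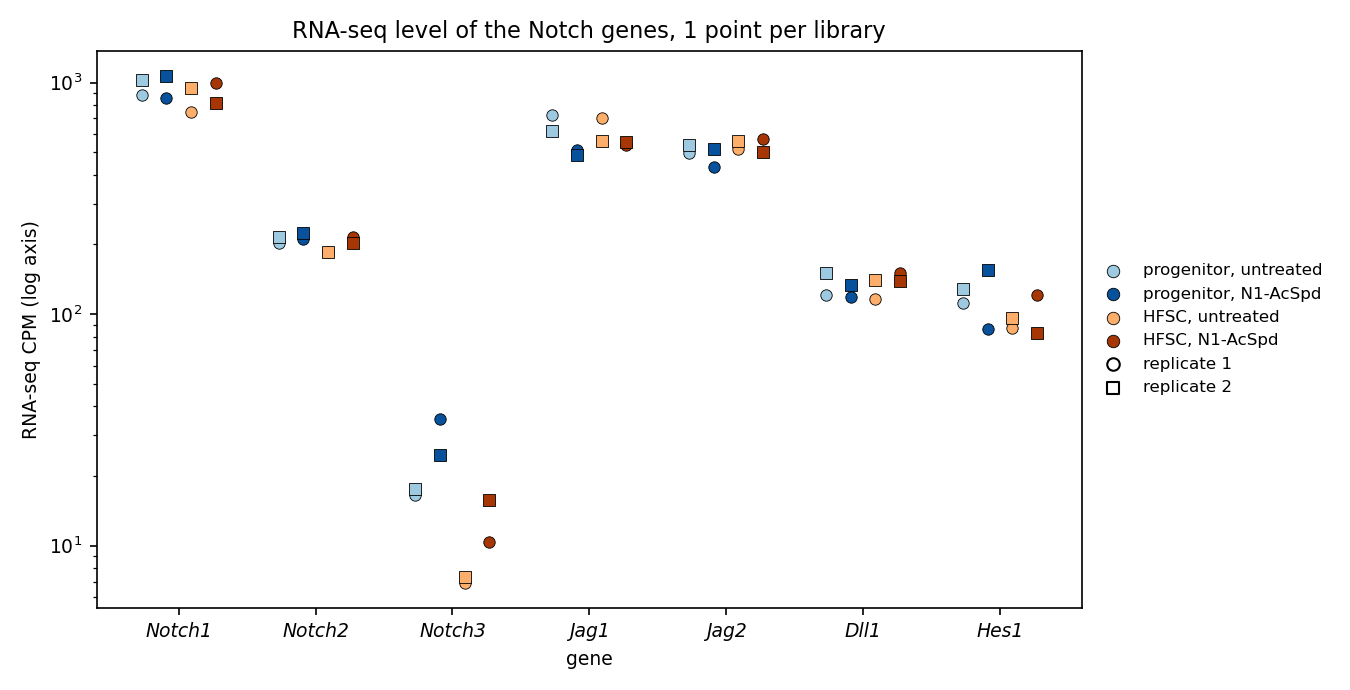
RNA-seq CPM of the 7 genes on a log axis, 1 point per library; colours are groups and symbols are replicates. Notch3 ran from 6.94 to 35.1 CPM, a range of 5.07 times, whereas the highest library was 1.21 to 1.87 times the lowest for the other 6 genes.

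Among the ligands, Jag1 had the lower values with N1-AcSpd. Jag1, the Jagged ligand that many epithelia use, had 727 and 617 CPM in untreated progenitors, 702 and 557 CPM in untreated HFSCs, 512 and 488 CPM in treated progenitors and 535 and 555 CPM in treated HFSCs. All 4 treated libraries lay below all 4 untreated ones, a separation that 7.83% of genes showed in either direction. The edgeR log2 fold change over both cell types was −0.32 (SE 0.095, unadjusted p = 0.00919), which did not pass after adjustment (adjusted p = 0.156). It was −0.43 (SE 0.135, adjusted p = 0.368) in progenitors and −0.21 (SE 0.134, adjusted p = 0.780) in HFSCs. Between the cell types the Jag1 log2 fold change was 0.02 (SE 0.095, adjusted p = 0.960 with edgeR), and −0.09 (SE 0.134) in untreated cells alone.

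Jag2, the second Jagged ligand, had 497 and 537 CPM in untreated progenitors, 518 and 558 CPM in untreated HFSCs, 430 and 519 CPM in treated progenitors and 573 and 499 CPM in treated HFSCs. The groups overlapped, and the edgeR log2 fold changes were 0.12 (SE 0.089, adjusted p = 0.539) for HFSCs over progenitors and −0.06 (SE 0.089, adjusted p = 0.786) for N1-AcSpd. Untreated cells alone gave 0.06 (SE 0.126) and progenitors alone −0.12 (SE 0.126) for Jag2. Dll1 had 120 and 151 CPM in untreated progenitors, 116 and 140 CPM in untreated HFSCs, 119 and 134 CPM in treated progenitors and 150 and 140 CPM in treated HFSCs. Its edgeR log2 fold changes were 0.06 (SE 0.101, adjusted p = 0.812) and 0.04 (SE 0.101, adjusted p = 0.904) in the same order. Untreated cells alone gave −0.08 (SE 0.143) and progenitors alone −0.10 (SE 0.143) for Dll1. The groups of Dll1 overlapped except between treated cells, where both HFSC libraries were above both progenitor libraries, as 39.0% of genes separated there.

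Hes1, the target, passed no test. It had 112 and 128 CPM in untreated progenitors, 86.9 and 96.1 CPM in untreated HFSCs, 86.6 and 155 CPM in treated progenitors and 121 and 82.6 CPM in treated HFSCs. In untreated cells both HFSC libraries lay below both progenitor libraries, as 40.7% of genes separated there, with a log2 fold change of −0.39 (SE 0.261, adjusted p = 0.720 with edgeR). In treated cells the groups overlapped. Over both treatments the value was −0.32 (SE 0.185, adjusted p = 0.414), and with N1-AcSpd it was 0.08 (SE 0.184, adjusted p = 0.882 with edgeR). In progenitors alone the N1-AcSpd value of Hes1 was 0.00341 (SE 0.261). Across the 8 libraries the RNA-seq pattern of Hes1 was nearest to that of Notch1 among the 7 (Pearson r of log2 CPM 0.870), against 0.239 with Notch3. These r are a description, since the 8 libraries are not independent points. In both Hes1 and Notch1, replicate 2 lay above replicate 1 in every group except treated HFSCs, where it lay below. The part of this replicate difference in the r was not tested.

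**Figure D4:**
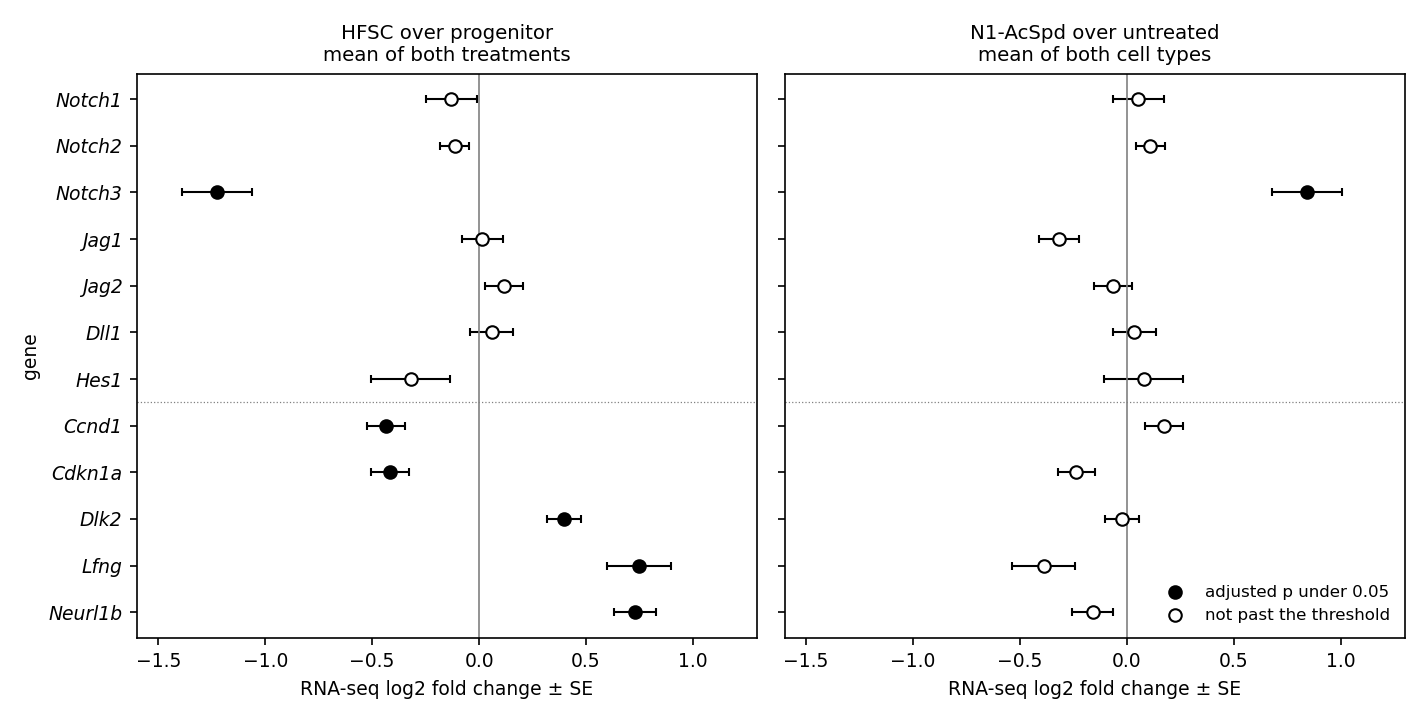
RNA-seq log2 fold change with its SE for the 7 genes (above the dotted line) and the 5 further pathway genes past the threshold (below it), for HFSC over progenitor (left) and N1-AcSpd over untreated (right). Filled points passed an adjusted p of 0.05 in edgeR: on the right only Notch3 (0.84) did.

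In Ribo-seq, footprints were few: the 7 genes had 0 to 288 per library. Over the 8 libraries Jag1 had 731 footprints, Notch1 553, Jag2 260, Dll1 150, Notch2 147 and Hes1 140. Notch3 had 5 and 2 of its 9 in replicate 2 of untreated progenitors and HFSCs, 1 in each treated progenitor library and 0 in the other 4, so its translation could not be compared at this depth. Per kb of coding sequence Jag1 was highest (230±88.4 CPM per kb), followed by Hes1 (176±111), Jag2 (89.3±25.3), Notch1 (88.5±22.4), Dll1 (67.0±39.9) and Notch2 (26.6±8.26; mean±s.d., n = 8). Each gene overlapped the next in this order.

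Jag1 footprints were 1435 and 1168 CPM in untreated progenitors, 609 and 875 CPM in untreated HFSCs, 610 and 453 CPM in treated progenitors and 858 and 730 CPM in treated HFSCs. Both untreated progenitor libraries stood above the other 6, and 29.4% of genes separated treated from untreated progenitors. With N1-AcSpd the log2 fold change in progenitors was −1.27 (SE 0.405, unadjusted p = 0.00177 with edgeR, where 2.80% of genes were under 0.05), or −1.23 in mouse 1 and −1.37 in mouse 2, but it did not pass after adjustment (adjusted p = 0.878). In HFSCs it was 0.09 (SE 0.394, adjusted p = 1), and the difference between the cell types in this response was 1.35 (SE 0.564, unadjusted p = 0.0164, adjusted p = 1.00 with edgeR, with 2.66% of genes under 0.05 unadjusted). Between untreated HFSCs and progenitors the Jag1 footprint log2 fold change was −0.78 (SE 0.392, unadjusted p = 0.0478, adjusted p = 1.00 with edgeR), again with 2.66% of genes under 0.05 unadjusted. In Jag1 RNA the value for N1-AcSpd in progenitors was −0.43, and the difference in Jag1 TE was −0.90 (SE 0.335, unadjusted p = 0.0171, adjusted p = 0.792 with edgeR).

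**Figure D5:**
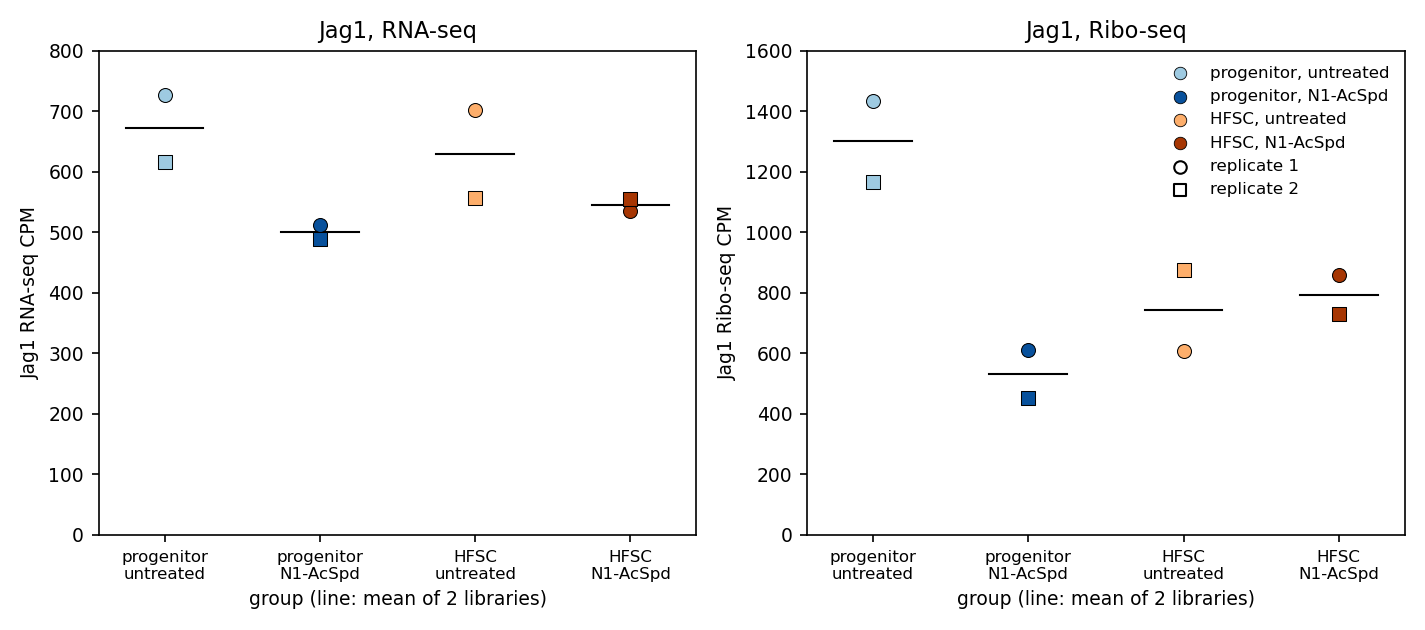
Jag1 CPM in RNA-seq (left) and Ribo-seq (right) by group, 1 point per library; lines are means of 2 libraries and the y axes start at 0. Untreated progenitors had 1168 and 1435 footprint CPM, above the other 6 Ribo-seq libraries (453 to 875 CPM).

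None of the 6 genes passed the edgeR test in any Ribo-seq comparison. Of 8431 genes, 0.0237% passed between untreated cells, 0.0356% between treated cells, 0.154% over both treatments, 0.0237% with N1-AcSpd in progenitors, 0.0830% with N1-AcSpd over both cell types and none with N1-AcSpd in HFSCs or for the difference between the cell types. Notch1 footprints were 730 and 778 CPM in untreated progenitors, 448 and 682 CPM in untreated HFSCs, 772 and 520 CPM in treated progenitors and 503 and 946 CPM in treated HFSCs. The groups overlapped except between untreated cells, where 29.1% of genes separated, and the edgeR log2 fold changes of Notch1 were −0.14 (SE 0.291) for HFSCs over progenitors and 0.04 (SE 0.291) for N1-AcSpd. Hes1 footprints ran from 0 to 282 CPM, with 0 in untreated progenitor replicate 1, the shallowest library, where up to 75.5 CPM remain possible. For Notch2, Jag2, Dll1 and Hes1 the log2 fold changes over both treatments or both cell types lay between −0.32 and 0.43, with SEs of 0.344 to 0.433.

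Translational efficiency gave no member past adjustment either, and no gene at all passed in any of the 6 TE comparisons with edgeR without a block (5 did with the replicate block for N1-AcSpd in progenitors), although 5.24% of genes between untreated cells, 6.24% between treated cells, 6.01% over both treatments, 6.10% with N1-AcSpd in progenitors, 6.87% in HFSCs and 7.37% over both cell types had an unadjusted p under 0.05. Among the 6 genes such a p was seen for Jag1 in progenitors (above) and for Notch2 between untreated cells (log2 difference in TE of HFSCs over progenitors 0.96, SE 0.410, unadjusted p = 0.0317, adjusted p = 0.907 with edgeR). Notch2 footprints were 227 and 130 CPM in untreated progenitors and 233 and 281 CPM in untreated HFSCs, which rests on 9 and 32 footprints against 13 and 35. In mouse 1 these Notch2 footprint levels differed by a log2 ratio of 0.04, and in mouse 2 by 1.11. As a description, footprint CPM over RNA CPM had its highest median in Jag1 (1.44, from 0.867 to 1.97 over 8 libraries) and its lowest in Jag2 (0.580, from 0.518 to 1.11).

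Around these genes, the pathway list held the other parts of the machinery. Of the 54 further genes 47 could be tested in RNA-seq, and the rest had too few counts: Dll4, Hes2 and Hes5 had none at all. Among the genes with the highest mean RNA-seq CPM of their lists were Lfng among the glycosyltransferases that modify the receptors (52.5±17.8 CPM, n = 8), Mib1 among the ubiquitin ligases that act on ligands (131±15.0 CPM), Furin among the proteases (268±12.4 CPM) and Itch among the inhibitors (66.9±6.22 CPM). Of the Hes and Hey genes listed as targets other than Hes1, none had a mean above 0.475 CPM. Hes6, listed among the inhibitors, averaged 6.25 CPM.

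Over both treatments 28 of the 47 further genes had higher values in HFSCs and 19 lower; 3 passed the edgeR test as higher and 2 as lower, beside 2.11% and 1.80% of all genes. Their median log2 fold change was 0.03, and that of all genes −0.01. Neurl1b, a ubiquitin ligase of Notch ligands, had 24.8 to 31.7 CPM in the 4 HFSC libraries and 16.3 to 19.3 CPM in the 4 progenitor libraries (log2 fold change 0.73, SE 0.097, adjusted p = 0.0068). Lfng, the fringe enzyme that shifts receptors towards Delta ligands, had 52.2 to 84.4 CPM against 29.5 to 52.7 CPM (0.75, SE 0.150, adjusted p = 0.0309). Dlk2, a ligand-like membrane protein without the domain that activates receptors, had 110 to 124 CPM against 80.9 to 95.2 CPM (0.40, SE 0.080, adjusted p = 0.0317). The libraries of Neurl1b and Dlk2 did not overlap between the cell types, as those of 9.52% of all genes did not, whereas those of Lfng did. Between untreated cells, with all 8 libraries in the fit, the edgeR log2 fold changes of Neurl1b, Lfng and Dlk2 were 0.70 (adjusted p = 0.0996), 0.65 (adjusted p = 0.325) and 0.33 (adjusted p = 0.353).

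The 2 genes lower in HFSCs were targets that many other pathways also regulate. Ccnd1, the cell cycle driver cyclin D1, had 85.2 to 99.3 CPM in HFSCs and 118 to 152 CPM in progenitors (−0.44, SE 0.087, adjusted p = 0.0312 with edgeR). Cdkn1a, the cell cycle inhibitor p21, had 125 to 163 CPM against 164 to 217 CPM (−0.42, SE 0.088, adjusted p = 0.0366 with edgeR). In untreated cells alone these values were −0.41 (adjusted p = 0.278) and −0.35 (adjusted p = 0.391). Neurl1b passed in all 8 fits that left out 1 library (adjusted p = 0.0132 to 0.0311). Lfng passed in 4 and was lost without replicate 1 of untreated or treated progenitors, untreated HFSC replicate 2 or treated HFSC replicate 1 (adjusted p = 0.0920 to 0.115). Dlk2 passed only without untreated HFSC replicate 1 or treated progenitor replicate 2, Ccnd1 only without treated progenitor replicate 2 and Cdkn1a only without treated progenitor replicate 1 (adjusted p of the fits that lost them 0.0691 to 0.151). With the mouse as a replicate block Ccnd1 (adjusted p = 0.0502) and Cdkn1a (adjusted p = 0.0595) did not pass, nor did Cdkn1a with counts summed over transcripts (adjusted p = 0.0519).

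With N1-AcSpd none of the further genes passed: 16 of 47 were higher and 31 lower over both cell types. Their median log2 fold change was −0.07, beside −0.01 for all genes. Of the 47, 6 had an unadjusted p under 0.05 with edgeR, as 15.6% of all genes had. In Ribo-seq 28 of the 54 further genes could be tested and none passed. The highest mean footprint levels were those of Cdkn1a among the targets (707±194 CPM, n = 8), Ncstn, a γ-secretase subunit (225±76.4 CPM), and Snw1, a coactivator of the RBPJ complex (206±65.9 CPM). Mib1 (58.2±38.8 CPM), Lfng (56.6±52.7 CPM) and Dtx2, a regulator of receptor traffic (43.2±24.6 CPM), led the other lists.

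For the other 6 genes the closest RNA-seq patterns over the 8 libraries were those of Rps27a (0.987) and Zscan25 (0.976) for Notch1, Frrs1 (0.964) and Zpr1 (0.963) for Notch2, Pik3ca (0.974) and Zfp207 (0.965) for Jag1, Oxct1 (0.992) and Ehbp1 (0.979) for Jag2, Zfp12 (0.957) and Zfp956 (0.946) for Dll1, and Dclre1c (0.984) and Sgpl1 (0.981) for Hes1, all as Pearson r of log2 CPM. With 8 points and 10166 genes searched, such values describe these libraries only.

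The kept transcripts lie as follows in GRCm38. Notch1 is on chromosome 2, 26457903 to 26503822, with 34 exons; Notch2 is on chromosome 3, 98013538 to 98150361, with 34 exons. Jag1 is on chromosome 2, 137081456 to 137116644, with 26 exons, Jag2 on chromosome 12, 112907819 to 112929776, with 26 exons, and Dll1 on chromosome 17, 15367354 to 15375976, with 11 exons. Hes1 is on chromosome 16, 30065340 to 30067796, with 4 exons. Notch1 and Jag2 each had a second counted transcript, and the others had 1 transcript each. For Jag2 the second transcript held 28 of the 288 footprints and 29247 of the 134752 RNA-seq counts. For Notch1 it held 3 of the 556 footprints and 10073 of the 194718 RNA-seq counts. The levels given for these 2 genes leave the second transcript out.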

How the data were processed

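The submitters' processing notes and methods name flexbar for trimming, Bowtie 1.2.3 for removing rRNA and tRNA reads, STAR 2.7.3a for alignment to GRCm38.p5 (mm10) and featureCounts; which part of a transcript was counted, and how multi-mapping reads were treated, is not given in the sources used here. The authors deposited unscaled read counts per transcript for 64026 transcripts, without molecular identifiers. Their log2 fold change and p-value columns were not used; their tables gave gene names. The 7 genes and all lists were chosen with earlier results of these data known, and the mural list after seeing them. Of the further pathway genes, those past the threshold and the highest of each list per assay are named (some are not reported here), and for each member the 2 genes with the highest r.

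Each gene was represented by the transcript with most footprints. CPM were computed with TMM factors, and the limits that a count of 0 allows are on the same scale. edgeR 4.0.16 (R 4.3.3) fitted the 4 groups of an assay with a quasi-likelihood model, without a block, for genes averaging 1 count or more, and p-values were adjusted by Benjamini-Hochberg (threshold 0.05). For TE, the 8 libraries compared, or all 16 for the comparisons over both treatments or cell types, were fitted with the interaction of assay and group. The common coefficient of variation was 15.0% (RNA-seq) and 34.7% (Ribo-seq). The scripts were tested on simulated data. Per-length levels used GENCODE vM21 transcript (RNA-seq) or coding (Ribo-seq) lengths; promoters are from RefSeq (GRCm38.p6).

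The sample titles number the replicates 1 and 2, and the submitters' methods name 2 donors without tying a number to a donor. The replicate number was taken as the donor mouse, and the samples were paired by it. The RNA-seq difference between the mice correlated at 0.401 to 0.737 among 3 groups and at −0.687 to −0.375 with treated HFSCs, and at 0.0235 to 0.113 in Ribo-seq. DESeq2 1.42.0, RLE factors, other minimum counts, the mouse as a block, other libraries in the fit, other transcript choices and leaving out each library were tried.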

Additional observations from a re-analysis of the deposited data

How the results depend on the processing

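Notch3 kept its lower level in HFSCs over both treatments under all 8 alternatives and all 8 fits without 1 library. The calls for Notch3 between untreated cells and between treated cells depended on the fit: the number of the 7 genes called rose from 0 to 1 in each with DESeq2, with no minimum count and with a replicate block in which the treated HFSC numbers were exchanged. With N1-AcSpd over both cell types the 1 call became 0 with counts summed over transcripts (Notch3 adjusted p = 0.0692) and with the replicate block (log2 fold change 0.84, adjusted p = 0.0812), and 0 to 1 over the fits without 1 library. The replicate block changed no other call of the 7 genes. Under the exchanged block, chosen after seeing the data, 2 of the 7 genes were called with N1-AcSpd over both cell types, 2 in progenitors and 1 in HFSCs, beside 1260, 446 and 269 of all 14205 genes. The cause of these changes was not tested. Of all genes in RNA-seq, DESeq2 called 268 between untreated cells, 380 between treated cells, 965 over both treatments, 178 with N1-AcSpd in progenitors and 581 over both cell types, against 21, 106, 556, 34 and 233 with edgeR. No minimum count gave 168, 256, 873, 107 and 419, and the replicate block 3, 44, 444, 7 and 135.

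Directions turned only where edgeR had made no call. In Ribo-seq with N1-AcSpd over both cell types, Hes1 (−0.04) became 0.10 with summed counts, 0.14 with DESeq2 and 0.30 with the replicate block, and Notch1 (0.04) became −0.049 with a minimum mean of 10 counts and −0.00122 with RLE factors. The TE of Hes1 (−0.37) became 0.11 with the replicate block and 0.14 with the exchanged one. Without 1 library, the RNA-seq log2 fold change of HFSCs over progenitors, over both treatments, crossed 0 for Dll1 (−0.018 to 0.16) and Jag1 (−0.069 to 0.094), and in untreated cells for Jag1 (−0.27 to 0.064). For N1-AcSpd over both cell types it did so in RNA-seq for Dll1 (−0.041 to 0.13), Hes1 (−0.15 to 0.26), Jag2 (−0.13 to 0.00033) and Notch1 (−0.028 to 0.15). In Ribo-seq between the cell types these ranges were −1.19 to 0.79 for Dll1, −0.069 to 3.63 for Hes1, −0.20 to 0.046 for Jag1, −0.26 to 0.17 for Jag2 and −0.37 to 0.082 for Notch1. With N1-AcSpd they were −0.69 to 0.72 for Dll1, −0.42 to 3.30 for Hes1 and −0.22 to 0.19 for Notch1. In TE between the cell types they were −1.36 to 0.82 for Dll1, −0.21 to 0.038 for Jag1, −0.40 to 0.049 for Jag2 and −0.25 to 0.20 for Notch1, and with N1-AcSpd −0.92 to 0.62 for Dll1, −0.74 to 6.74 for Hes1 and −0.30 to 0.12 for Notch1. Without division by length the RNA-seq rank became 1 for Notch1, 2 for Jag1, 3 for Jag2, 4 for Notch2 and 6 for Hes1, and the Ribo-seq rank 2 for Notch1, 4 for Notch2, 5 for Hes1 and 6 for Dll1. Footprint counts limit Ribo-seq and TE, most of all in untreated progenitor replicate 1.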
